A study of Mesocricetus auratus with 6 samples.

Results

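Inflammatory and myeloid-type genes were followed by RNA sequencing in BHK21, an established hamster line of fibroblast appearance whose source the labels give as kidney at an age of one day. The 10 genes were chosen by name and by measured values of these libraries, because several had high FPKM in BHK21 or lower FPKM after STYK1/NOK transfection, so their levels and their differences between the groups are given as a description, with no test. They were found by matching the NCBI Gene IDs of the deposited values to golden hamster symbols. Of the 10 genes, 9 matched among 16078 listed genes: Pla2g2a, Cd14, Cd68, Mmp9, Cebpd, Csf1, Fcer1g, Nfkbib and Nfkbia. Cebpb did not match a listed ID and was not analysed here.

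There were 6 libraries in 2 groups, and both groups consisted of transfected BHK21 cells. In the STYK1 group (STYK1 1 to 3) the cells received STYK1/NOK, a membrane protein with a kinase-like domain whose gene the series calls an oncogene. In the vector group (vector 1 to 3) they received pCMV-Myc, an empty mammalian expression plasmid. RNA was harvested 48 after transfection, with no unit in the labels, and the species of the transfected STYK1/NOK sequence is not stated. Whether each library came from a culture of its own is not stated, so any p-value reflects the spread of these libraries, which may be a technical spread. Levels are in FPKM, the number of sequenced fragments scaled by transcript length and by the mapped fragments of the library, which allows levels of different genes to be compared per length.

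Vector 1 stood apart from the other 5 libraries. Over the 11464 genes tested (group mean of 1 FPKM or more in STYK1 or vector libraries), its Pearson correlation with the others on log2(FPKM + 1) was 0.963 to 0.976, against 0.988 to 0.993 among the rest. Its FPKM values summed to 619840, while the sums of the other vector libraries were 554681 and 557946 and those of the STYK1 libraries lay between 528160 and 542638. Depth relative to STYK1 1, estimated from the spacing of low FPKM values, lay between 0.979 and 1.03. For the 9 genes the log2 differences are given with and without vector 1.

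The 9 genes act at successive steps of innate inflammation. CD14 is a surface co-receptor that hands bacterial lipopolysaccharide to the TLR4 and MD-2 receptor complex, and FcR gamma, the product of Fcer1g, is the signalling chain of several Fc receptors. Signals from TLR4 free NF-kB from its cytoplasmic inhibitors, IkB alpha (Nfkbia) and IkB beta (Nfkbib), and Nfkbia is itself a classical NF-kB target gene that closes a negative feedback loop. C/EBP delta (Cebpd) is a transcription factor of the acute-phase response. CSF1 is the growth factor that sustains macrophages, group IIA phospholipase A2 (Pla2g2a) is a secreted enzyme that hydrolyses phospholipids, MMP9 is a secreted gelatinase, and CD68 is a lysosomal glycoprotein used as a macrophage marker.

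High level was part of how the genes were chosen, so their levels describe the set and do not test it. Of the 9 genes, 8 were abundant and Fcer1g was not. These 8 genes measured at least 50 FPKM in each library, while the median over all listed genes was 7.88 FPKM. Pla2g2a was the highest, with a mean over the 6 libraries of 706 FPKM, which 111 of the 16078 genes exceeded. Cd68 followed at 302 FPKM, Nfkbia at 220.3 FPKM, Cd14 at 203 FPKM, Csf1 at 177.5 FPKM and Cebpd at 148 FPKM. Mmp9 averaged 95.7 FPKM and Nfkbib 77.4 FPKM. Fcer1g averaged 3.19 FPKM, a level that 10007 genes exceeded.

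Most steps of this order were the same in each library. Pla2g2a lay above Cd68, Cd68 above Nfkbia, Cebpd above Mmp9, Mmp9 above Nfkbib and Nfkbib above Fcer1g in 6 of 6 libraries. Nfkbia lay above Cd14 in 4 of 6 libraries, with the other order in STYK1 3 and vector 2, so this pair was not separated by level. Csf1 exceeded Cd14 in STYK1 2, and Cebpd exceeded Csf1 in vector 1.

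**Figure D1:**
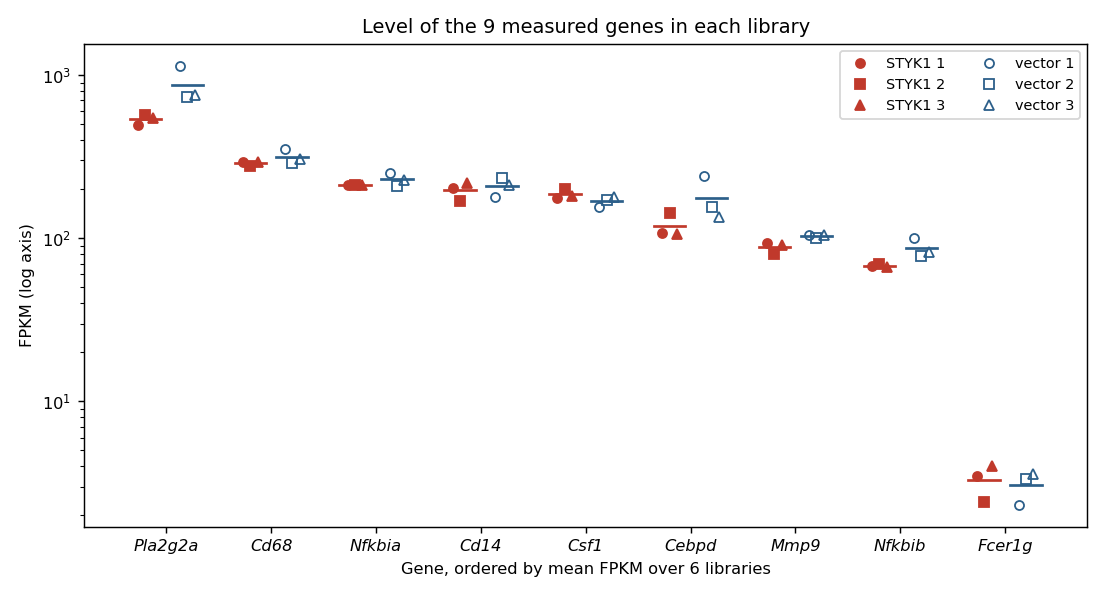
FPKM of the 9 genes on a log axis, with 1 point per library, STYK1 libraries filled and vector libraries open, and a line at each group mean. Pla2g2a is the highest gene in each library, Fcer1g lies below 5 FPKM in each, and vector 1 is the highest point for Pla2g2a, Cd68, Nfkbia, Cebpd and Nfkbib.

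The word myeloid was checked against markers of the cells concerned. Of 21 macrophage and monocyte markers 12 were listed, and 10 of these averaged under 1 FPKM. Whether the unlisted markers were undetected or missed by ID is not known. Csf1r, the CSF1 receptor, was the highest at 3.25 FPKM. The transcription factor gene Spi1 was listed at 0, 0.44 and 0 FPKM in STYK1 libraries and at 0.43, 0 and 0.14 FPKM in vector libraries, and Adgre1, which encodes F4/80, was above 0 in vector 2 alone, at 0.05 FPKM. The 12 listed markers summed to between 5.78 and 5.99 FPKM in STYK1 libraries and between 5.13 and 6.01 FPKM in vector libraries, and Cd68 was not counted among them.

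Most markers of the other blood cell lists were also low, with exceptions among the pan-leukocyte markers. Ptprc, which encodes the pan-leukocyte antigen CD45, averaged 0.115 FPKM. Of 12 listed pan-leukocyte markers, 7 averaged under 1 FPKM, and the highest was Arhgdib at 62.4 FPKM, followed by the tetraspanin gene Cd37 at 14.7 FPKM. This list summed to between 85.2 and 87.6 FPKM in STYK1 libraries and between 75.4 and 81.8 FPKM in vector libraries. The 3 listed neutrophil markers, the 3 listed mast cell markers and the 4 listed lymphocyte markers each summed to less than 1 FPKM in each library. Of 12 listed fibroblast markers, 6 averaged at least 10 FPKM and 5 under 1 FPKM. The intermediate filament gene Vim averaged 3913 FPKM, Pdgfra 286 FPKM, Sparc 276 FPKM and Fn1 218 FPKM. Col6a1 averaged 39.0 FPKM, Pdgfrb 37.2 FPKM and Dcn 4.69 FPKM, while Col1a1, Col1a2, Col3a1, Lum and Thy1 each averaged under 1 FPKM. Of 8 listed markers of kidney epithelium, 7 averaged under 1 FPKM and the water channel gene Aqp1 averaged 2.42 FPKM. The set is thus a group of genes chosen partly for their level, in cells whose listed macrophage markers mostly averaged under 1 FPKM. The name myeloid-type refers to where these genes are best known. In bulk RNA a smaller share of cells and less RNA per cell cannot be told apart.

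**Figure D2:**
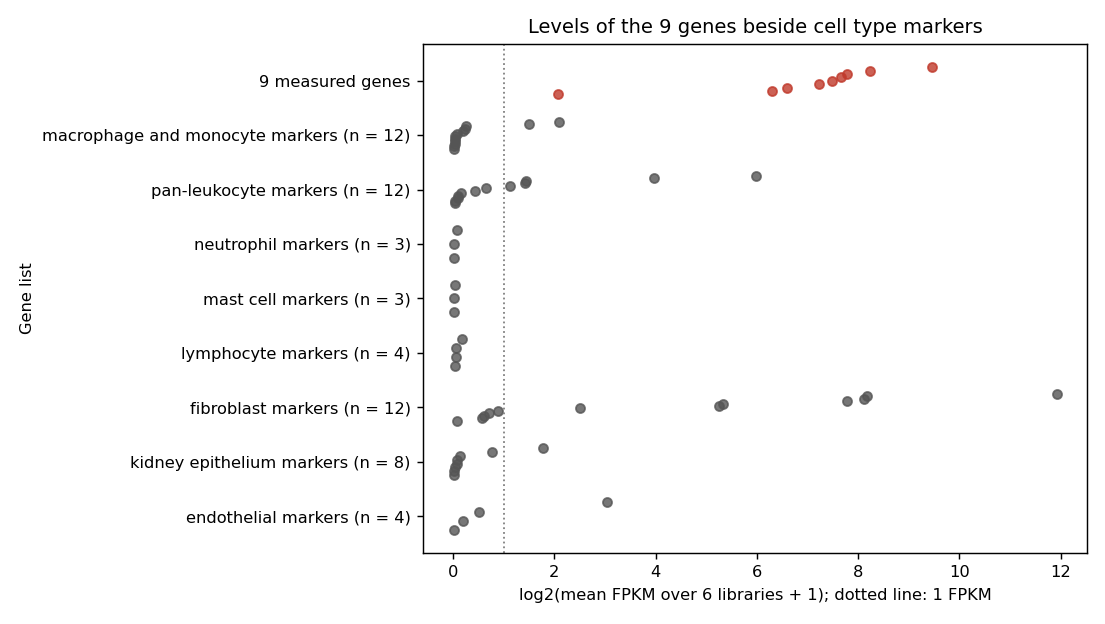
Mean level over the 6 libraries, as log2(FPKM + 1), of the 9 genes (red, top row) and of each listed cell type marker (grey, 1 row per list, n genes in each). The dotted line marks 1 FPKM. Apart from Fcer1g, the 9 genes lie far to the right of all listed macrophage, neutrophil, mast cell and lymphocyte markers. In the pan-leukocyte row Arhgdib, at 62.4 FPKM, lies near Nfkbib, at 77.4 FPKM.

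In the comparison of STYK1 with vector libraries, the mean was lower in STYK1 libraries for 7 of the 9 genes and higher for Csf1 and Fcer1g. Over all tested genes, 47.3% had a log2 difference below 0. The 3 STYK1 values lay entirely below the 3 vector values for Pla2g2a, Mmp9 and Nfkbib and overlapped them for the other 6. Over all 11464 tested genes, 9.44% lay entirely lower, 13.6% entirely higher and 23.1% apart in either direction. The choice of the genes drew on this comparison, so nothing is read from these counts of the 9 genes. The median log2 difference was -0.12 for the 9 genes and 0.01 over all tested genes, and without vector 1 it was -0.18 and 0.02. Without vector 1 the same 3 genes lay entirely lower, as did 11.9% of all genes. Scaling the libraries to equal FPKM sums moved the median of all genes to 0.12, and under that scaling 2 of the 9 genes lay entirely lower (3.93% of all genes) and 1, Csf1, entirely higher (24.4%). Log2 differences below are on the log2(FPKM + 1) scale, STYK1 minus vector, with the standard error (SE) of the fit over 3 libraries in each group.

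Of the genes for receptors, Cd14 (Gene ID 101839548) measured 203, 170.1 and 217 FPKM in STYK1 1, 2 and 3, and 179.6, 234 and 212 FPKM in vector 1, 2 and 3. The lowest value of each group came from STYK1 2 and vector 1, and the groups overlapped over most of their range. The means were 197 ± 24.2 FPKM in STYK1 and 208 ± 27.2 FPKM in vector libraries (SD, n = 3 each), with a log2 difference of -0.08 ± 0.13 (SE). That value was -0.18 without vector 1 and 0.02 without STYK1 2, and it was 0.03 with equal FPKM sums, so no direction is given for Cd14.

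The other genes of lipopolysaccharide recognition were expressed at lower levels than Cd14. Tlr4, the signalling receptor, measured 17.4, 20.6 and 16.5 FPKM in STYK1 libraries and 13.8, 16.9 and 16.4 FPKM in vector libraries. Ly96, which encodes the TLR4 partner MD-2, measured 2.90, 1.70 and 4.07 FPKM in STYK1 libraries and 4.94, 6.94 and 4.53 FPKM in vector libraries, so the groups did not overlap. The log2 difference of Ly96 was -0.76 ± 0.24 (SE), and -0.82 without vector 1, but Ly96 missed the threshold across all genes (limma-trend with Benjamini-Hochberg adjustment, adjusted p = 0.469). The ratio of Cd14 to Ly96 in FPKM was 69.9, 100.1 and 53.4 in STYK1 libraries and 36.4, 33.7 and 46.8 in vector libraries. The intracellular adaptors and kinases Irak1, Irak4 and Myd88 averaged 38.5, 29.9 and 23.4 FPKM over the 6 libraries. Of 12 listed genes in this group besides Cd14, 10 were tested, and 0 passed (limma-trend, adjusted p), as over all tested genes (0% called). At an unadjusted p under 0.05 Ly96 was lower and 0 were higher, against 4.88% of all tested genes lower and 4.95% higher. The lipopolysaccharide-binding protein gene Lbp did not match a listed ID.

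Fcer1g (Gene ID 101837124) measured 3.47, 2.40 and 4.01 FPKM in STYK1 1, 2 and 3, and 2.32, 3.34 and 3.57 FPKM in vector 1, 2 and 3. As for Cd14, STYK1 2 and vector 1 were the lowest libraries, and the groups overlapped. The means were 3.29 ± 0.819 FPKM in STYK1 and 3.08 ± 0.665 FPKM in vector libraries (SD, n = 3 each), and the log2 difference was 0.07 ± 0.19 (SE), or -0.07 without vector 1. At this level the value rests on few fragments, and its counting error is not known because fragment counts were not given in the sources used here.

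The listed receptors that use FcR gamma were near 0. Fcer1a, the IgE-binding chain, was above 0 in STYK1 2 alone, at 0.17 FPKM, and Fcgr4 averaged 0.115 FPKM, while Fcgr1, Fcgr3 and Ms4a2 did not match a listed ID. Syk, the kinase that binds the phosphorylated chain, averaged 0.112 FPKM and the Src-family kinase gene Lyn 9.36 FPKM. Fcgr2b, an inhibitory Fc receptor that signals without FcR gamma, measured 3.61, 4.19 and 3.05 FPKM in STYK1 libraries and 1.84, 2.65 and 2.62 FPKM in vector libraries. Its groups did not overlap, with a log2 difference of 0.46 ± 0.16 (SE), or 0.34 without vector 1, but it did not pass the test (limma-trend, adjusted p = 0.469). Of 4 tested genes in this group besides Fcer1g, 0 passed (0% of all genes). Of these, Fgr entered the test only through its vector mean, at 1.15 FPKM against 0.81 FPKM in STYK1 libraries. Among the 3 with both group means at 1 FPKM or more, Fcgr2b alone had an unadjusted p under 0.05 (limma-trend). The share of all genes so filtered was 9.71%.

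The IkB genes differed from each other in how far the groups were separated. Nfkbib (Gene ID 101831453) measured 67.5, 69.7 and 66.4 FPKM in STYK1 1, 2 and 3, and 99.9, 78.2 and 82.6 FPKM in vector 1, 2 and 3. All 3 STYK1 libraries lay below all 3 vector libraries, and vector 1 was the highest. The means were 67.9 ± 1.64 FPKM in STYK1 and 86.9 ± 11.5 FPKM in vector libraries (SD, n = 3 each), a ratio of 0.781. The log2 difference was -0.34 ± 0.10 (SE), -0.24 without vector 1 and -0.23 with equal FPKM sums.

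Nfkbia (Gene ID 101835014) measured 211.5, 211 and 211 FPKM in STYK1 1, 2 and 3, and 253, 209 and 227 FPKM in vector 1, 2 and 3. The 3 STYK1 values differed by 1.003-fold between the highest and the lowest, and vector 2 lay below all of them. The means were 211 ± 0.378 FPKM in STYK1 and 229.5 ± 21.9 FPKM in vector libraries (SD, n = 3 each), with a log2 difference of -0.12 ± 0.09 (SE). The difference was -0.04 without vector 1 and -0.0045 with equal FPKM sums. The ratio of Nfkbia to Nfkbib was 3.13, 3.03 and 3.17 in STYK1 libraries and 2.53, 2.67 and 2.75 in vector libraries, and since both genes were chosen with this comparison known, the ratio is also a description.

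The wider NF-kB pathway was present at moderate levels. Nfkb1 and Rela, which encode the p50 precursor and the p65 subunit that IkB proteins retain, averaged 43.2 and 43.0 FPKM over the 6 libraries, and Rel, which encodes c-Rel, averaged 7.79 FPKM. The highest of the 37 listed pathway genes besides the IkB pair was the tumour necrosis factor receptor gene Tnfrsf1a at 78.6 FPKM, followed by Tnip1, an inhibitor of the pathway, at 74.2 FPKM, the nuclear IkB gene Nfkbiz at 54.1 FPKM and the TAK1-binding adaptor gene Tab2 at 54.0 FPKM. The summed level of the list was 766 to 775 FPKM in STYK1 libraries and 769.6 to 774 FPKM in vector libraries. Another IkB gene, Nfkbie, measured 10.2, 11.4 and 9.98 FPKM in STYK1 libraries and 14.3, 11.8 and 11.8 FPKM in vector libraries, without overlap between the groups, and its log2 difference was -0.24 ± 0.12 (SE), or -0.15 without vector 1. The groups overlapped for the other genes of the IkB family, Nfkbiz, Nfkbid and Bcl3. Their log2 differences were 0.19 ± 0.18 (SE), -0.33 ± 0.22 (SE) and -0.17 ± 0.12 (SE), and -0.03, -0.12 and -0.05 without vector 1. Nfkbid entered the test only through its vector mean, at 1.40 FPKM against 0.87 FPKM in STYK1 libraries.

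Of 36 tested genes of this pathway, Nfkbid among them, 0 passed (limma-trend, adjusted p, 0% of all genes). At an unadjusted p under 0.05, 2 of the 35 whose STYK1 and vector means both reached 1 FPKM were higher and 0 lower. Of all genes so filtered, 4.83% were higher and 4.88% lower. The 2 were Tab3, an adaptor of the TAK1 kinase, at 22.4, 23.5 and 22.4 FPKM in STYK1 and 14.3, 19.8 and 19.98 FPKM in vector libraries, and the ubiquitin ligase gene Traf6, at 7.89, 6.62 and 5.50 FPKM in STYK1 and 2.68, 5.26 and 5.09 FPKM in vector libraries. Their log2 differences were 0.34 ± 0.14 (SE) and 0.55 ± 0.23 (SE), and 0.19 and 0.30 without vector 1, the lowest library for both. The catalytic IkB kinase genes were Chuk, at 28.5, 29.4 and 25.5 FPKM in STYK1 and 12.2, 25.3 and 23.1 FPKM in vector libraries, and Ikbkb, at 11.5, 10.8 and 10.9 FPKM in STYK1 and 9.30, 10.4 and 9.95 FPKM in vector libraries. Both lay higher in all 3 STYK1 libraries, and neither passed the test. The log2 difference of Chuk was 0.50 ± 0.24 (SE) with vector 1, its lowest library, and 0.19 without it, and that of Ikbkb was 0.15 ± 0.10 (SE) and 0.11. The median log2 difference of the 36 genes was 0.0031, or 0.0078 without vector 1, and 10 of them (27.8%) had groups that did not overlap, 8 higher and 2 lower, against 23.1% of all tested genes, with 13.6% higher and 9.44% lower. This difference from all genes was not tested.

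Cebpd (Gene ID 101836131) measured 108, 143 and 106 FPKM in STYK1 1, 2 and 3, and 242, 155 and 135 FPKM in vector 1, 2 and 3. STYK1 2 was above vector 3, so the groups overlapped, and vector 1 stood 1.87-fold above the mean of the other 5 libraries. The means were 119 ± 20.9 FPKM in STYK1 and 177.5 ± 57.1 FPKM in vector libraries (SD, n = 3 each), with a log2 difference of -0.54 ± 0.21 (SE) that was -0.29 without vector 1 and -0.71 without vector 3. The spread within the vector group, 1.80-fold, was larger than the 1.49-fold difference between the means.

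Among related transcription factor genes, Cebpg, which encodes a C/EBP without an activation domain of its own, measured 24.2, 26.7 and 23.9 FPKM in STYK1 libraries and 20.3, 20.3 and 22.3 FPKM in vector libraries. Its log2 difference of 0.24 ± 0.09 (SE) did not pass the test (limma-trend, adjusted p = 0.469), and it was 0.22 without vector 1. Atf4, a stress-response factor that pairs with C/EBP proteins, averaged 269 FPKM, and Cebpz 45.4 FPKM. Trib1 and Trib2, pseudokinase genes whose products promote degradation of C/EBP alpha, averaged 19.6 and 8.83 FPKM. Cebpe, the granulocyte member of the family, was above 0 in vector 1 alone, at 0.12 FPKM, and Cebpa and Ddit3 did not match a listed ID. Of 5 tested genes in this group besides Cebpd, 0 passed (limma-trend, adjusted p), with 1 higher, Cebpg, and 0 lower at an unadjusted p under 0.05, against 4.95% and 4.88% of all genes.

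Of the genes for secreted products, Pla2g2a (Gene ID 101828046) showed the lowest ratio of the means. It measured 494, 572 and 549 FPKM in STYK1 1, 2 and 3, and 1139, 733 and 751 FPKM in vector 1, 2 and 3. All 3 STYK1 libraries lay below all 3 vector libraries, and vector 1 was 1.84-fold above the mean of the other 5. The means were 538 ± 40.5 FPKM in STYK1 and 874 ± 229 FPKM in vector libraries (SD, n = 3 each), a ratio of 0.616, or 0.726 without vector 1. The log2 difference was -0.67 ± 0.17 (SE), and it was -0.46 without vector 1, -0.56 with equal FPKM sums and -0.44 after quantile normalization.

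Pla2g2a made up most of the secreted phospholipase A2 transcript level. It accounted for 83.0%, 84.3% and 84.5% of the summed FPKM of 8 listed secreted phospholipase genes in STYK1 libraries and for 90.8%, 87.2% and 86.6% in vector libraries. Pla2g12a was next, at 87.9 FPKM over the 6 libraries, and Pla2g5 averaged 19.6 FPKM. Pla2g5, the related group V enzyme gene, measured 16.2, 18.5 and 16.7 FPKM in STYK1 libraries and 27.0, 19.3 and 20.1 FPKM in vector libraries, also without overlap and also with vector 1 as the highest library. Its log2 difference of -0.34 ± 0.14 (SE) did not pass the test (limma-trend, adjusted p = 0.469) and was -0.19 without vector 1. Pla2g2c, Pla2g2e, Pla2g2f, Pla2g3 and Pla2g12b each averaged under 1 FPKM, as did the receptor gene Pla2r1, which was above 0 in STYK1 1 alone at 0.03 FPKM.

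The enzymes that act after phospholipase A2 in prostaglandin synthesis were also measured. Ptgs2, the inducible cyclooxygenase gene, measured 9.06, 10.8 and 9.60 FPKM in STYK1 libraries and 7.11, 10.6 and 8.83 FPKM in vector libraries, while Ptgs1 averaged 0.518 FPKM. Ptges3, a cytosolic prostaglandin E synthase better known as the HSP90 co-chaperone p23, averaged 297 FPKM. Lta4h, of the leukotriene branch, averaged 40.6 FPKM and Ptges2 24.0 FPKM, whereas Alox5, which starts that branch, was above 0 in STYK1 1 alone, at 0.06 FPKM. Of 12 tested genes in this group 0 passed (limma-trend, adjusted p), and at an unadjusted p under 0.05 Pla2g5 was lower and 0 were higher, against 4.88% and 4.95% of all genes.

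Mmp9 (Gene ID 101823596) measured 93.0, 79.6 and 90.7 FPKM in STYK1 1, 2 and 3, and 105, 100.6 and 105 FPKM in vector 1, 2 and 3. The groups did not overlap, STYK1 2 was the lowest library, and vector 1 did not stand out from the other vector libraries. The means were 87.8 ± 7.15 FPKM in STYK1 and 104 ± 2.55 FPKM in vector libraries (SD, n = 3 each), a ratio of 0.848, with a log2 difference of -0.24 ± 0.09 (SE) and -0.23 without vector 1. With equal FPKM sums the difference was -0.13 and the groups overlapped.

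The other gelatinase gene, Mmp2, was far higher than Mmp9, at 937, 911 and 997 FPKM in STYK1 libraries and 1064, 1043 and 1027 FPKM in vector libraries. The ratio of Mmp9 to Mmp2 was 0.0992, 0.0874 and 0.0910 in STYK1 libraries and 0.0983, 0.0965 and 0.103 in vector libraries. Timp1, the inhibitor that binds proMMP9, measured 316, 286 and 372 FPKM in STYK1 libraries and 372, 365 and 359 FPKM in vector libraries. The ratio of Mmp9 to Timp1 was 0.294, 0.278 and 0.244 in STYK1 libraries and 0.281, 0.276 and 0.293 in vector libraries, overlapping between the groups. Bsg, which encodes the MMP-inducing surface protein basigin, measured 470.3, 481 and 487 FPKM in STYK1 libraries and 681, 542 and 545 FPKM in vector libraries, with a log2 difference of -0.29 ± 0.11 (SE) that was -0.18 without vector 1. Lcn2, whose product forms a complex with MMP9, measured 0.63, 0.21 and 0 FPKM in STYK1 libraries and 1.66, 0.62 and 0.83 FPKM in vector libraries, and it entered the test only through its vector mean and was not tested without vector 1. Of 13 tested genes for MMPs and their partners 0 passed (limma-trend, adjusted p; 0% of all genes). At an unadjusted p under 0.05, of the 12 whose STYK1 and vector means both reached 1 FPKM, 1 was lower, Bsg, and 0 were higher, against 4.88% and 4.83% of all genes so filtered.

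Csf1 (Gene ID 101826376) had a higher mean in STYK1 libraries. It measured 175.7, 199.8 and 182 FPKM in STYK1 1, 2 and 3, and 155, 173 and 179 FPKM in vector 1, 2 and 3. STYK1 2 was the highest library and vector 1 the lowest, and STYK1 1 lay below vector 3, so the groups overlapped. The means were 186 ± 12.4 FPKM in STYK1 and 169 ± 12.5 FPKM in vector libraries (SD, n = 3 each). The log2 difference was 0.14 ± 0.09 (SE), 0.08 without vector 1 and 0.25 with equal FPKM sums, a scaling under which the groups did not overlap. Csf1r, its receptor, measured 3.56, 2.91 and 3.25 FPKM in STYK1 libraries and 3.03, 3.70 and 3.03 FPKM in vector libraries. Of the other colony-stimulating factor genes, Csf2 averaged 4.47 FPKM and Csf3 0.118 FPKM, and Il34, which encodes the second CSF1R ligand, averaged 0.0617 FPKM. Besides Csf1, 2 genes of this group were tested, and 0 were called at either an adjusted or an unadjusted p under 0.05 (limma-trend; 0% and 9.84% of all genes).

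Cd68 (Gene ID 101832344) measured 295, 279 and 292 FPKM in STYK1 1, 2 and 3, and 351, 288 and 306 FPKM in vector 1, 2 and 3. Vector 2 lay below STYK1 1 and STYK1 3, so the groups overlapped. The means were 289 ± 8.65 FPKM in STYK1 and 315 ± 32.6 FPKM in vector libraries (SD, n = 3 each), with a log2 difference of -0.12 ± 0.09 (SE), -0.04 without vector 1 and 0.0045 after quantile normalization. Related lysosomal membrane genes were likewise abundant, with the tetraspanin gene Cd63 at 1130.3 FPKM, Lamp1 at 489 FPKM, Scarb2 at 229 FPKM and Lamp2 at 113 FPKM over the 6 libraries. The macrophage scavenger receptor genes Msr1 and Cd36 averaged 0.195 and 0.487 FPKM. Of 4 tested genes in this group besides Cd68, 0 were called at an adjusted or an unadjusted p under 0.05 (limma-trend; 0% and 9.84% of all genes).

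The inflammatory genes that C/EBP and NF-kB factors are known to control covered a wide range of levels. Sod2, the mitochondrial superoxide dismutase gene, averaged 1004.5 FPKM, the complement gene C3 465.5 FPKM, Il18 226 FPKM and the adhesion gene Icam1 73.7 FPKM. The cytokine genes Il6, Tnf, Il1a and Il1b averaged 0.255, 0.200, 0.0233 and 0.02 FPKM, and Nos2, the inducible nitric oxide synthase gene, averaged 0.02 FPKM. In between lay Tnfaip3 at 17.0 FPKM, Vcam1 at 15.7 FPKM, Ptgs2 at 9.33 FPKM, Ccl20 at 7.76 FPKM, Il33 at 4.71 FPKM and Lif at 2.12 FPKM. C3 measured 352, 526 and 326 FPKM in STYK1 libraries and 709, 446 and 434 FPKM in vector libraries, so vector 1 was its highest library and STYK1 2 its second. Of 19 listed genes in this group besides Nfkbia, 9 averaged under 1 FPKM. Of the 12 tested, 0 passed (limma-trend, adjusted p; 0% of all genes). At an unadjusted p under 0.05 there were 0 of the 10 whose STYK1 and vector means both reached 1 FPKM (9.71% of all genes so filtered).

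Across the 9 pathway lists, which held 182 genes besides the 10, 137 were listed and 95 were tested. Of these 95 genes 0 passed, and over all 11464 tested genes 0 passed (0% called, limma-trend, adjusted p under 0.05, smallest adjusted p = 0.469). At an unadjusted p under 0.05 there were 8 of the 95 (8.42%), 4 higher and 4 lower, against 9.84% of all tested genes. Of the 91 whose STYK1 and vector means both reached 1 FPKM, a filter added after the values were seen that leaves out Lcn2, there were 7 (7.69%), 4 higher and 3 lower, against 9.71% of all genes so filtered. Without this added filter, the split with equal FPKM sums was 8 higher and 2 lower of 94 tested. After quantile normalization it was 3 higher and 5 lower of 95. For all genes it was 568 higher and 560 lower, and 1269 and 216 with equal FPKM sums. Groups did not overlap for 21 of the 95 genes (22.1%, against 23.1% of all genes). The shares for these pathways thus lay near those of all genes.

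**Figure D3:**
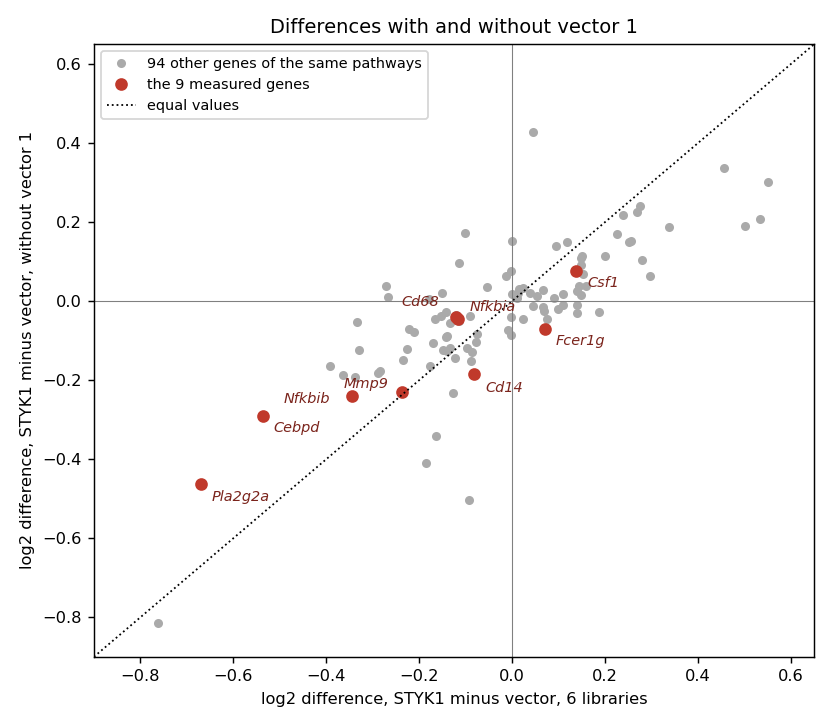
Log2 difference, STYK1 minus vector, on the log2(FPKM + 1) scale with all 6 libraries (x axis) and without vector 1 (y axis), for the 9 genes (red, named) and 94 other tested genes of the same pathways (grey). The dotted line marks equal values. Cebpd is at -0.54 with vector 1 and -0.29 without it, while Mmp9 lies on the line at -0.24 and -0.23.

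The genes differed in how much they varied among the libraries and in which libraries were high. The range between the highest and the lowest library on the log2(FPKM + 1) scale was 1.20 for Pla2g2a and 1.18 for Cebpd, against a median of 0.47 over all tested genes. Fcer1g and Nfkbib ranged over 0.59 and 0.58, Cd14 over 0.46 and Mmp9 over 0.40, and Csf1, Cd68 and Nfkbia over 0.36, 0.33 and 0.27. Of all tested genes 96.5% had a smaller range than Pla2g2a and 18.6% a smaller range than Nfkbia. Among genes within 0.5 of the level of each on this scale, the shares were 98.7% for Pla2g2a and 31.7% for Nfkbia. Without vector 1 the ranges of Pla2g2a and Cebpd were 0.60 and 0.54, and that of Nfkbia 0.12, against a median of 0.28.

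Vector 1 was the highest of the 6 libraries for Pla2g2a, Cebpd, Nfkbib, Cd68 and Nfkbia and the lowest for Csf1 and Fcer1g. Over all tested genes it was the highest for 37.1% and the lowest for 36.2%. The profiles were compared after centring on each gene's own mean. Pla2g2a, Cebpd and Nfkbib stood at 0.75, 0.76 and 0.38 in vector 1 and lay below their mean in STYK1 1 and STYK1 3. Cd68 and Nfkbia stayed within 0.11 of their mean in the 5 other libraries and stood at 0.22 and 0.20 in vector 1. Cd14 and Fcer1g were lowest in STYK1 2 and vector 1 together, a pattern found for 10.2% of tested genes, and Csf1 had its highest value in STYK1 2, at 0.17, and its lowest in vector 1, at -0.19. Mmp9 had its low value in STYK1 2, at -0.25, and values of 0.13, 0.08 and 0.14 in vector 1, 2 and 3.

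**Figure D4:**
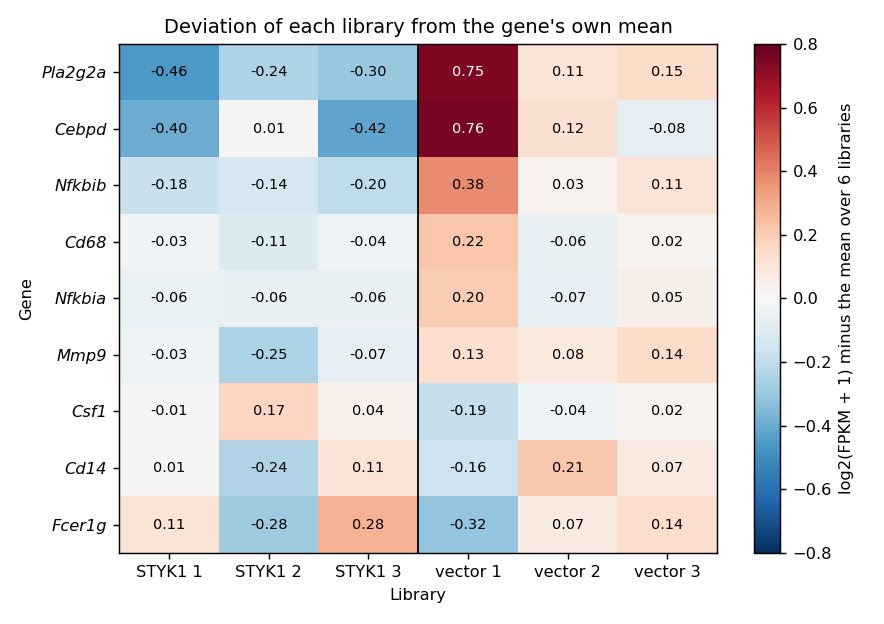
Deviation of each library from the gene's own mean over 6 libraries, in log2(FPKM + 1) units, for the 9 genes (rows) and 6 libraries (columns, STYK1 left of the black line, vector right of it), with red above and blue below the mean. Vector 1 holds the most positive value for Pla2g2a, Cebpd, Nfkbib, Cd68 and Nfkbia, and STYK1 2 and vector 1 hold the 2 lowest values for Cd14 and Fcer1g.

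Likeness of 2 profiles was measured as the mean absolute difference between the centred log2(FPKM + 1) values over the 6 libraries. Among the 36 pairs of the 9 genes its median was 0.20, or 0.15 over the 5 libraries without vector 1. The closest pair was Cd68 and Nfkbia at 0.0248, followed by Cd68 and Mmp9 at 0.0876 and Mmp9 and Nfkbia at 0.0902. These genes ranged less than the median of all tested genes, and the measure is small between genes that vary little. Nfkbib differed by 0.11 from Cd68 and from Nfkbia, by 0.16 from Pla2g2a and by 0.21 from Cebpd. Cd14 and Fcer1g differed by 0.11, as did Pla2g2a and Cebpd. Without vector 1 Pla2g2a was closer to Nfkbib, at 0.11, than to Cebpd, at 0.13. Among all tested genes Nfkbia ranked 8 of 11463 in likeness to Cd68, Cebpd ranked 44 in likeness to Pla2g2a and Fcer1g ranked 972 in likeness to Cd14. Without vector 1 these ranks were 144, 397 and 1317. Nfkbib ranked 242 in likeness to Pla2g2a, and 145 without vector 1. Mmp9 ranked 2029 in likeness to Cd68 and 2279 in likeness to Nfkbia, and 5188 and 5438 without vector 1. In likeness to Mmp9, Cd68 ranked 583 and Nfkbia 687, and 1225 and 1299 without vector 1. The most unlike pair was Cebpd and Fcer1g at 0.48. The choice of the genes drew on the comparison of STYK1 with vector libraries, which is part of these profiles. The likeness values and ranks of the 9 genes are therefore a description and no test of co-variation. With 6 libraries, 1 of them far from the rest, no correlation between genes is given.

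For the 4 genes that ranged over at least 0.5, the closest of 9891 other named genes are given by the same measure. Closest to Pla2g2a were Fmc1 at 0.0330, Nt5c at 0.0601 and Nol3 at 0.0671. Fmc1, a mitochondrial assembly factor gene, measured 12.0, 14.1 and 13.5 FPKM in STYK1 libraries and 29.0, 17.7 and 17.5 FPKM in vector libraries, and it was also the closest without vector 1, where Nt5c and Nol3 ranked 13 and 18. Closest to Cebpd were the riboflavin transporter gene Slc52a2 at 0.0543, Cplane2 at 0.0547 and again Nol3 at 0.0668, which ranked 2, 7 and 23 without vector 1. Closest to Nfkbib were the ribosomal protein gene Rps23 at 0.0178, Ssr4, of the translocon-associated complex, at 0.0255 and Fam216a at 0.0290, with ranks of 4, 15 and 23 without vector 1. Rps23 measured 528, 574 and 541 FPKM in STYK1 libraries and 818, 632 and 667 FPKM in vector libraries. Closest to Fcer1g were the cell cycle gene Cks1b at 0.0269, the spindle gene Tacc3 at 0.0280 and Agk at 0.0324, with ranks of 5, 6 and 15 without vector 1. Cks1b measured 71.5, 52.8 and 77.5 FPKM in STYK1 libraries and 51.2, 68.96 and 75.3 FPKM in vector libraries, with the same lowest pair of libraries as Fcer1g. The likeness of Fcer1g to these genes is uncertain, because its values rest on few fragments and the scale understates its changes.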

How the data were processed

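Per the labels' protocols, libraries from Trizol-extracted RNA were made with the Illumina TruSeq RNA kit. The authors deposited FPKM values, 1 per gene and library, per the file headers. The submitters' processing notes name Bowtie 0.12.2 and the mouse builds mm8 and mm9 without giving their role. The FPKM software, its strand setting and its treatment of multi-mapping reads are not stated there, so values of close paralogs and overlapping genes are uncertain. Of 16078 NCBI Gene IDs, 15049 matched the RefSeq gene table of BCM_Maur_2.0, used for names only, with no coordinates. The other 1029 had no symbol. None of the listed genes was at 0 in all libraries. A gene that did not match a listed ID may therefore have been undetected or been missed by ID. Ranks and medians over all listed genes cover detected genes only.

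The 11464 genes with a group mean of 1 FPKM or more were fitted with limma-trend (limma 3.58.1, R 4.3.3, robust) on log2(FPKM + 1), a scale that understates changes of low genes. P-values were adjusted by Benjamini-Hochberg over all of them, with a threshold of 0.05. The fit was tested on simulated data. Relative depth is the most frequent ratio of values between 0.8 and 6 FPKM (kernel bandwidth 0.005, a setting taken over from earlier work on these data). Absolute depth is unknown, so neither counting intervals nor detection limits are given.

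The 10 genes, the 9 pathway lists and the 8 marker lists were chosen with earlier results of these data known. The rule for named genes took the 10, fixed partner genes, up to 4 genes per pathway list by level and up to 4 by p, and up to 3 genes of most similar profile. Genes near 0, Nfkbie and some others were singled out after their values were seen. Whether the numbers in the library titles pair the libraries is not known. Deviations from the group means correlated at -0.27, -0.16 and 0.11 for equal numbers and between -0.28 and 0.28 for unequal numbers. With few libraries, 1 of them far from the rest, these values cannot decide it. Alternatives were pseudocounts of 0.1 and 0.5 FPKM, no filter, 3 scalings, a replicate block and leaving out each library.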

Additional observations from a re-analysis of the deposited data

How the results depend on the processing

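Over the 13 alternatives, the number of genes past an adjusted p of 0.05 was 0 under the other pseudocounts, without the filter, under the 3 scalings and with the replicate block, and 0 to 2 when a library was left out (2 without STYK1 1, STYK1 3 or vector 3). For the pathway genes it was 0 under each of the 13 alternatives, with 94 to 137 of them tested. With the replicate block 450 genes were higher and 381 lower at an unadjusted p under 0.05, against 568 and 560 without it. Since no pairing by number is known, the block is no separate evidence. Equal FPKM sums gave 1269 higher and 216 lower, and median centring 402 and 762. When single libraries were left out, the number at an unadjusted p under 0.05 ranged from 165 higher and 189 lower (without STYK1 1) to 904 higher and 808 lower (without vector 3). Of the 9 genes, 6 kept the sign of their log2 difference under the 13 alternatives: Pla2g2a (-0.78 to -0.44), Cebpd (-0.71 to -0.29), Nfkbib (-0.42 to -0.23), Mmp9 (-0.28 to -0.13), Nfkbia (-0.18 to -0.0045) and Csf1 (0.08 to 0.25). The sign changed for Cd14 (-0.18 to 0.03), Cd68 (-0.18 to 0.0045) and Fcer1g (-0.07 to 0.23). The choice of the genes drew on this comparison, so their signs are a description. With the replicate block, and without the filter, the log2 difference of each of the 9 genes was unchanged by construction. Of the 117 values of the 9 genes under alternatives, 6 moved by more than the pooled SD of the gene, 4 with equal FPKM sums and 2 after quantile normalization, and the cause was not tested. The 117 include the values with the replicate block and without the filter, which could not move. The pooled SD includes the spread of vector 1. For Cebpd it was 0.35, so a change from -0.54 to -0.29 without vector 1 counted as not moved. Absolute depth is unknown, which limits Fcer1g, Ly96, Lcn2 and the markers near 0 most. Counting only pathway genes whose STYK1 and vector means both reached 1 FPKM, an alternative chosen after seeing the data, also gave 0 past an adjusted p of 0.05 (limma-trend), with 7 of 91 at an unadjusted p under 0.05.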
